A study of Homo sapiens with 6 samples.

Results

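The mucin and trefoil factor genes were examined in HT29 cells, an established line from a human colorectal adenocarcinoma with epithelial morphology. The group was given as 10 gene symbols, the mucins MUC1, MUC2, MUC5AC, MUC5B, MUC13 and MUC20, the trefoil factors TFF1, TFF2 and TFF3, and LYZ, and all 10 were found among the 28278 symbols that were counted. LYZ encodes lysozyme, which is neither a mucin nor a trefoil factor but is secreted into the same luminal layer. The siALDOA cells, with the genotype given as ALDOA KD, received siRNA against ALDOA, and the siControl cells, with the genotype given as WT, received a scrambled siRNA. RNA was taken from 3 biological replicates of each after 48 h, and the comparison asks which of these genes changed with ALDOA knockdown.

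Gel-forming mucins are very large secreted glycoproteins that goblet cells store in granules and that build the mucus layer over the gut epithelium. Transmembrane mucins stay anchored in the apical membrane and form the glycocalyx, while trefoil factors are small, disulfide-rich peptides secreted together with mucins that help the epithelium to repair. MUC2 is the main mucin of the normal colon, whereas MUC5AC, with TFF1, is typical of the gastric surface and appears in some colorectal tumours.

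The libraries held from 27277538 to 33237914 counts on genes, so that a level of 1 CPM, the count relative to the scaled library size, stood for 27.8 to 32.95 counts. The members took from 0.175% to 0.197% of the counts of a library. ALDOA, which encodes the glycolytic enzyme aldolase A, was at 283, 305 and 280 CPM in siALDOA replicates 1, 2 and 3 and at 592, 637 and 668 CPM in the siControl replicates. All 3 siALDOA libraries lay below every siControl library, and the log2 fold change was -1.13 (standard error, SE, 0.060, adjusted p = 6.95e-11). CPM values were scaled by TMM, fold changes are siALDOA against siControl, and p-values came from edgeR's quasi-likelihood test, adjusted by Benjamini-Hochberg over all 15307 tested genes with a threshold of 0.05.

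Of the 10 members, 9 passed the filter on low counts, and TFF1 did not. MUC5AC was the only member that passed the threshold in edgeR's quasi-likelihood test. It fell, so 1 of 9 tested members was called lower, against 5.29% of all tested genes, and 0 of 9 were called higher, against 4.36%. At an unadjusted p under 0.05, edgeR gave 1 higher member (MUC20) and 2 lower members (MUC2 and MUC5AC), against 1728 higher and 1888 lower of all 15307 tested genes. limma-voom and DESeq2 each called 0 members higher and 1 lower, and edgeR's likelihood ratio test called 1 higher and 1 lower. The groups did not overlap for 3 of 9 members in the higher direction (MUC20, TFF3 and LYZ), against 13.1% of all tested genes, and for 1 of 9 in the lower direction (MUC5AC), against 14.6%. The median log2 fold change was 0.11 over the tested members and 0.0016 over all tested genes, with members ranging from -0.32 to 0.54. In bulk RNA, fewer cells that express a gene and less RNA per cell cannot be told apart.

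**Figure D1:**
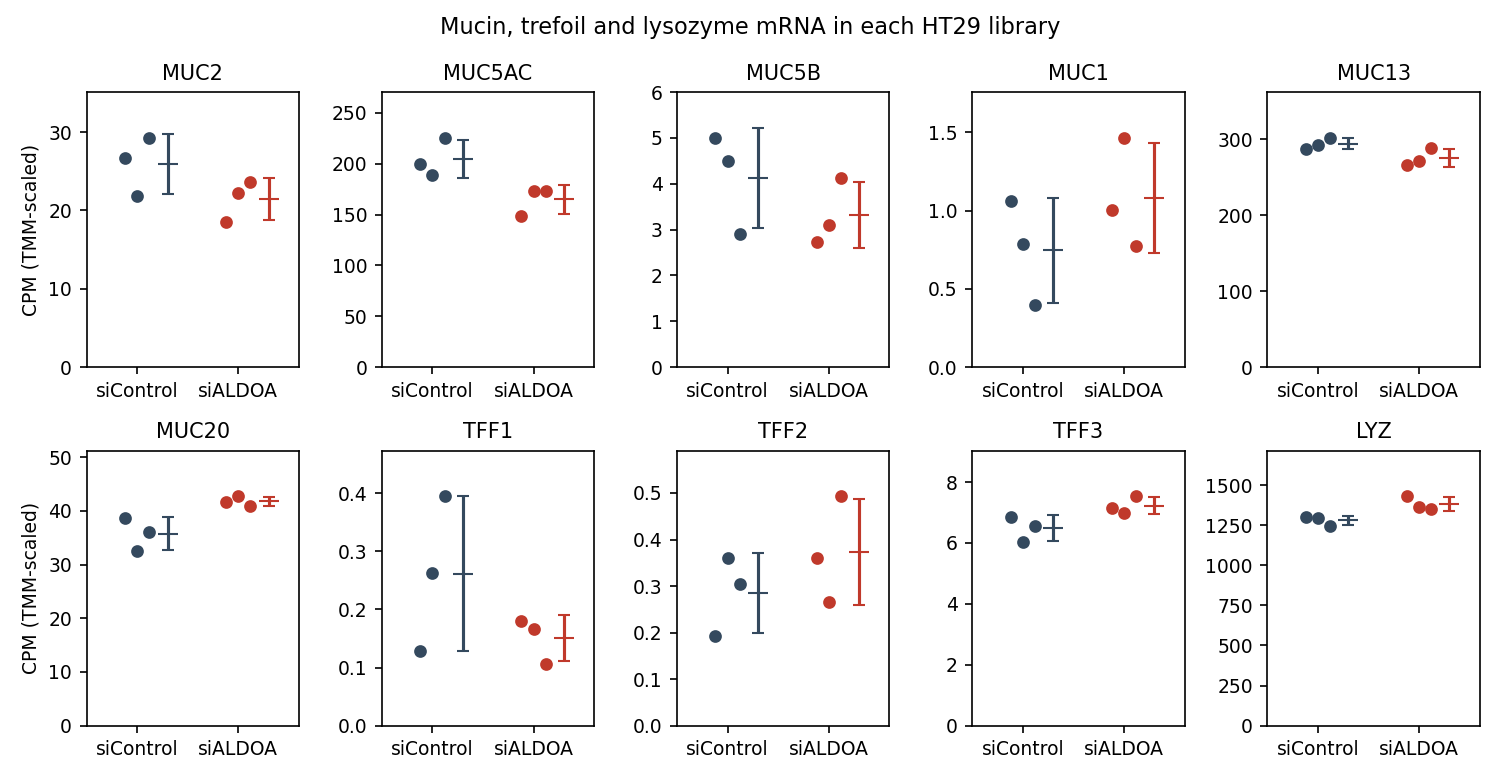
Level of each member in the 6 HT29 libraries, as TMM-scaled CPM on linear axes that start at 0. Points are libraries, replicates 1 to 3 from left to right, and the bar beside them is the mean with 1 SD. The 3 siALDOA points of MUC5AC lie below the 3 siControl points, and those of MUC20, TFF3 and LYZ lie above them.

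Among the gel-forming mucins, MUC5AC was at 149, 174 and 173 CPM in siALDOA replicates 1, 2 and 3 and at 199.99, 189 and 226 CPM in siControl replicates 1, 2 and 3. Every siALDOA library was below every siControl library, with siALDOA replicate 1 the lowest and siControl replicate 3 the highest. The level was 165 ± 14.2 CPM with siALDOA and 205 ± 18.9 CPM with siControl (SD, n = 3 each), a log2 fold change of -0.31 (SE 0.071, 95% interval -0.46 to -0.16), and the edgeR adjusted p was 0.00745. The decrease was seen under all 16 alternative settings, 14 of which kept the call, with adjusted p from 2.13e-05 to 0.115. The call was lost without siControl replicate 3 (-0.24, adjusted p = 0.0855) and with scaling by library totals only (-0.24, adjusted p = 0.115). Library totals included ribosomal RNA, with shares of 13.1%, 7.71% and 8.11% in the siALDOA replicates and 17.4%, 15.3% and 8.15% in the siControl replicates. With those genes left out before scaling by totals, an alternative chosen after seeing the data, the MUC5AC value was -0.30 (adjusted p = 0.00666).

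MUC2 was at 18.5, 22.2 and 23.6 CPM in the siALDOA replicates and at 26.7, 21.8 and 29.3 CPM in the siControl replicates. The groups overlapped, because siControl replicate 2 lay below siALDOA replicates 2 and 3. The log2 fold change was -0.27 (SE 0.11, 95% interval -0.50 to -0.043) and did not pass the threshold in edgeR (adjusted p = 0.129). It passed without siControl replicate 2 (-0.38, adjusted p = 0.0493) and with no filter on low counts (-0.28, adjusted p = 0.0458), within a range of 0.0458 to 0.481 over 16 alternatives. The value shrank to -0.18 without siALDOA replicate 1 (adjusted p = 0.362) and to -0.18 without siControl replicate 3 (adjusted p = 0.481). MUC5B, a gel-forming mucin best known from the airways, was at 2.73, 3.09 and 4.12 CPM in the siALDOA replicates and at 5.003, 4.49 and 2.91 CPM in the siControl replicates. The groups overlapped widely, and the log2 fold change of -0.32 (SE 0.23, adjusted p = 0.433 in edgeR) did not pass. Without siALDOA replicates 1 or 3 it was -0.20 or -0.50, and without siControl replicates 1 or 3 it was -0.16 or -0.52. MUC5B overlaps the antisense gene MUC5B-AS1, which had from 0 to 6 counts in a library. For MUC2, MUC5AC and MUC5B the log2 fold change stayed below 0 in all 16 alternatives.

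MUC2, MUC5AC and MUC5B lie next to each other on the short arm of chromosome 11, at chr11:1074874-1110508, chr11:1157953-1201138 and chr11:1223066-1262172 of GRCh38.p14. The RefSeq promoter table of that build holds entries for 3 of the 10 members, MUC1, MUC2 and MUC13. The entries for MUC5AC, MUC5B, MUC20, TFF1, TFF2, TFF3 and LYZ are missing. The MUC2 promoter is shown because MUC2 shares its cluster with the called MUC5AC. It is the 250 bases before the start of the gene, at chr11:1074624-1074873 on the plus strand, upstream of its first exon, with motif matches in capitals.
MUC2: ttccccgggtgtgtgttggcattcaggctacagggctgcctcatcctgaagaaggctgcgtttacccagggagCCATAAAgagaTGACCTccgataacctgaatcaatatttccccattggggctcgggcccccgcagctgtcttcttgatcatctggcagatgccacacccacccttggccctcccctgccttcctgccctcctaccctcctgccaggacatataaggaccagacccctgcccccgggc
On both strands of such windows, 6 motifs were searched: TTCNNNGAA (GAS, bound by STAT proteins), GAAANNGAA (interferon response like), GGNNTTTCC (NF-kappaB like), AGGTCA (nuclear receptors), TTTATNG (CDX) and GGGCGG (SP1). The MUC2 window held 1 CDX match, beginning 177 bases before the start, and 1 AGGTCA match, beginning 166 bases before it, both on the minus strand and not overlapping each other. Of all 35116 promoters in the table, 8.93% held the CDX letters, 12.1% AGGTCA, 6.57% the GAS letters, 6.88% the interferon response letters, 5.48% the NF-kappaB letters and 42.6% the SP1 letters. The MUC13 window held none of the 6 motifs, and both MUC1 entries, windows shifted by a few bases, held the SP1 letters 4 times, in 3 matches that overlap one another and 1 apart. A match is a description of the letters and not a binding site.

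Among the transmembrane mucins, MUC13, which is abundant on intestinal epithelium, was at 266, 271 and 287.9 CPM in the siALDOA replicates and at 287.6, 292 and 302 CPM in the siControl replicates. The ranges met only at siALDOA replicate 3 and siControl replicate 1, and the log2 fold change of -0.095 (SE 0.055, adjusted p = 0.317 in edgeR) did not pass the threshold and was -0.023 with library totals only (-0.088 when ribosomal RNA genes were left out as well). MUC20, a membrane mucin known to bind the receptor tyrosine kinase MET, was at 41.7, 42.7 and 41.0 CPM in the siALDOA replicates and at 38.6, 32.6 and 36.02 CPM in the siControl replicates. The siALDOA libraries lay close together and above all siControl libraries, of which replicate 2 was the lowest. The level was 41.8 ± 0.865 CPM with siALDOA and 35.7 ± 3.05 CPM with siControl (SD, n = 3 each), a log2 fold change of 0.23 (SE 0.076, 95% interval 0.067 to 0.38), and the edgeR adjusted p of 0.0674 did not pass. It passed in 4 of 16 alternatives, which were the likelihood ratio test (0.0479), library totals only (0.0403, but 0.0622 if ribosomal RNA genes were also left out), the replicate block (0.0320) and the fit without siControl replicate 1 (0.29, adjusted p = 0.0349), and ranged from 0.0320 to 0.293 over all. MUC20 has near-identical copies in the genome and how reads matching several places were counted was not stated, so its values are uncertain. MUC1, the membrane mucin of many glandular epithelia, had 28, 44 and 22 counts in the siALDOA replicates and 33, 24 and 13 counts in the siControl replicates. At about 1 CPM its groups overlapped, and the log2 fold change of 0.54 (95% interval -0.34 to 1.42, adjusted p = 0.483 in edgeR) did not pass and had a standard error of 0.42. The value moved to 0.26 when siALDOA replicate 2 was dropped, to 0.88 when siControl replicate 1 was dropped and to 0.23 when siControl replicate 3 was dropped.

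**Figure D2:**
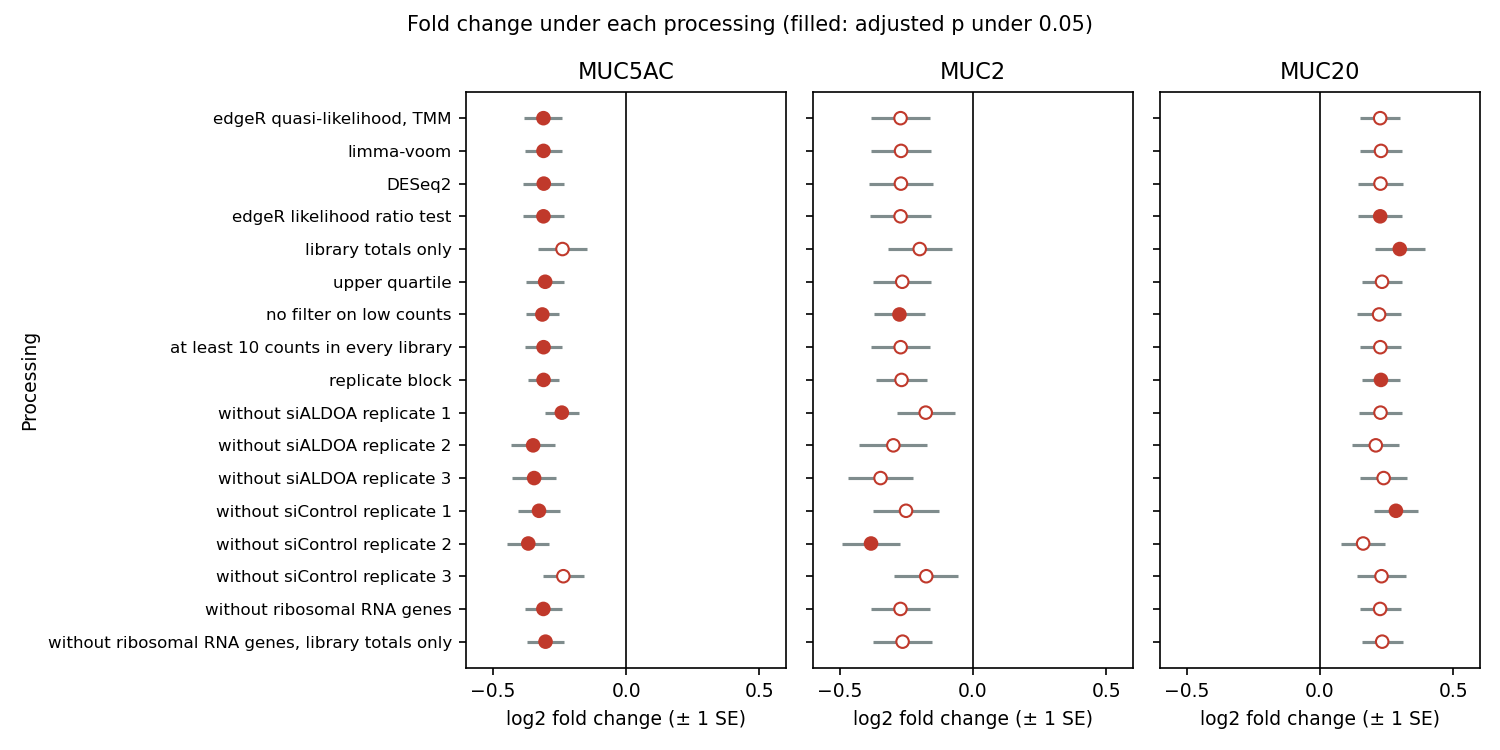
log2 fold change with 1 standard error of MUC5AC, MUC2 and MUC20 under the processing used and 16 alternatives. Filled points passed an adjusted p of 0.05. MUC5AC and MUC2 stayed below 0 and MUC20 above 0 in every setting, and the settings without a call for MUC5AC were library totals only and without siControl replicate 3.

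Among the trefoil factors, TFF3, the trefoil factor of intestinal goblet cells, was at 7.15, 6.99 and 7.53 CPM in the siALDOA replicates and at 6.86, 6.03 and 6.56 CPM in the siControl replicates. The siALDOA libraries were all higher by a narrow margin, and the log2 fold change of 0.16 (SE 0.14, adjusted p = 0.551 in edgeR) did not pass. TFF2, known from gastric mucous neck cells, had 10, 8 and 14 counts in the siALDOA replicates and 6, 11 and 10 counts in the siControl replicates. TFF1, known from gastric surface cells, had 5, 5 and 3 counts in the siALDOA replicates and 4, 8 and 13 counts in the siControl replicates. Both genes overlapped between the groups. The TFF2 log2 fold change was 0.38 (SE 0.54, adjusted p = 0.733 in edgeR), and TFF1 was not tested. Without siALDOA replicates 2 or 3 the TFF2 value was 0.57 or 0.13, and without siControl replicates 1 or 2 it was 0.16 or 0.57. Summed over a group, TFF1 had 13 counts with siALDOA (95% exact Poisson interval 6.92 to 22.2) and 25 with siControl (16.2 to 36.9), intervals that cover counting error only.

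LYZ, the lysozyme gene of Paneth cells and of myeloid cells, was at 1429, 1362 and 1348 CPM in the siALDOA replicates and at 1299, 1294 and 1246 CPM in the siControl replicates. The groups did not overlap, with every siALDOA library above every siControl library. The levels were 1380 ± 43.7 CPM and 1280 ± 29.5 CPM (SD, n = 3 each), and the log2 fold change of 0.11 (SE 0.065, 95% interval -0.026 to 0.24, adjusted p = 0.330 in edgeR) did not pass the threshold and was 0.18 with library totals only (0.12 when ribosomal RNA genes were left out as well). LYZ supplied 74.6%, 72.3% and 71.5% of the member counts in the siALDOA replicates and 69.6%, 70.3% and 67.4% in the siControl replicates. The summed level of the 10 members was 1916, 1884 and 1886 CPM with siALDOA and 1865, 1841 and 1849 CPM with siControl. All 3 siALDOA sums lay above the siControl sums, but the order rested on LYZ and on the scaling. As a share of library totals, siALDOA replicate 1 (0.189%) lay below siControl replicate 3 (0.191%). Without LYZ, the other 9 members summed to 486, 522 and 538 CPM with siALDOA and to 566, 547 and 603 CPM with siControl, every siALDOA sum below every siControl sum. This order rested on MUC5AC, at 149, 174 and 173 CPM with siALDOA and 199.99, 189 and 226 CPM with siControl. Alone among the 9, MUC5AC was lower in every siALDOA library than in every siControl library, while MUC20 and TFF3 were higher. The sums therefore do not show a decrease shared by the 9 members. As shares of library totals the groups overlapped for these 9 members, with siALDOA replicates 2 and 3 above siControl replicates 1 and 2.

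To compare levels between members, CPM was divided by the length of the canonical GENCODE release 44 transcript. On this scale the siControl mean was 859 CPM per kb for LYZ, 102 for MUC13, 14.3 for MUC20, 11.7 for MUC5AC and 7.48 for TFF3. The other members were under 1 CPM per kb, with TFF1 at 0.532, TFF2 at 0.473, MUC1 at 0.412 and MUC5B at 0.231. Over the 6 libraries, LYZ, MUC13 and MUC20 each stayed above the next member, while the ranges of MUC5AC and TFF3 overlapped, as did those of each neighbouring pair from TFF1 to MUC5B. MUC2 was left out of this order, since its canonical transcript there spans 4209 bases, against 17448 for MUC5AC and 17911 for MUC5B, and appears to be a partial model.

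**Figure D3:**
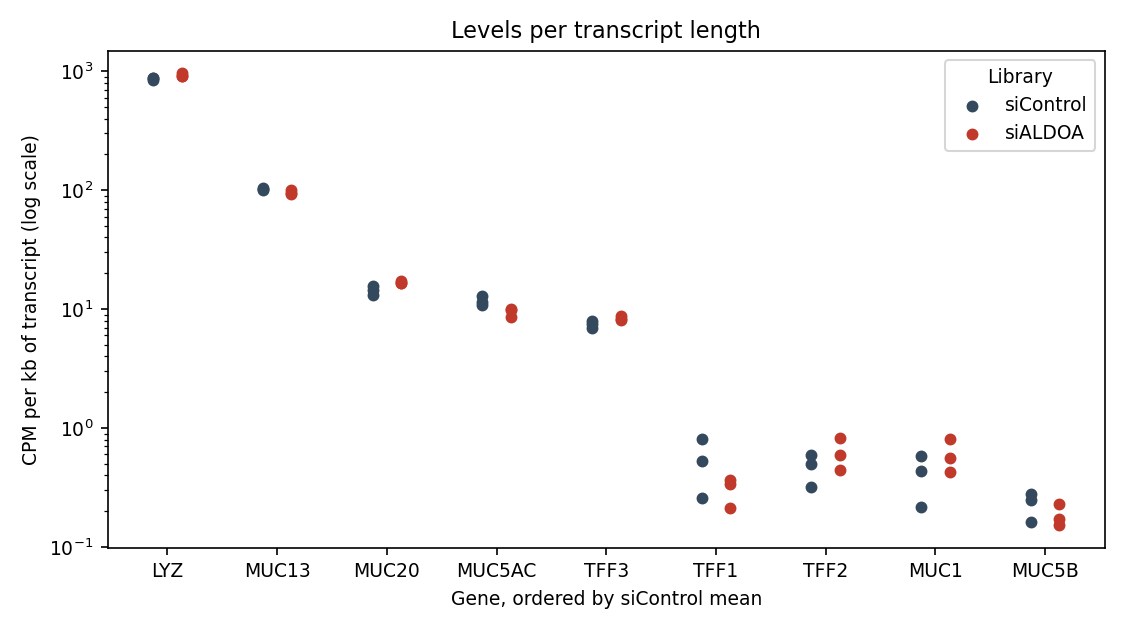
Level of 9 members per kb of canonical transcript, on a log axis, ordered by the siControl mean. Points are single libraries, siControl left and siALDOA right. LYZ lay between 836 and 959 and MUC13 between 92.4 and 105 CPM per kb, MUC20, MUC5AC and TFF3 between 6.95 and 17.1, and TFF1, TFF2, MUC1 and MUC5B below 1.

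A list of 15 other mucins and mucin-like genes held 8 tested genes, with a median log2 fold change of -0.14. Of these, 0 were called higher and 1 lower, MUC17, against 4.36% and 5.29% of all tested genes. At an unadjusted p under 0.05 edgeR gave 1 higher gene and 1 lower, and limma-voom and DESeq2 also called 0 higher and 1 lower. MUC17, a transmembrane mucin of the intestinal brush border, had 17, 41 and 44 counts in the siALDOA replicates and 83, 73 and 84 counts in the siControl replicates. The siControl libraries were alike and all above the siALDOA libraries, of which replicate 1 was the lowest. The log2 fold change was -1.10 (SE 0.31, adjusted p = 0.0285 in edgeR), from 2.53 ± 0.135 CPM to 1.17 ± 0.497 CPM (SD, n = 3 each). The call was lost without siALDOA replicate 1 (-0.80, adjusted p = 0.0861) and without siControl replicate 1 (0.0722), 2 (0.0737) or 3 (0.0875), within 0.00234 to 0.0875 over all alternatives. Next to it on chromosome 7, MUC12 and MUC3A, also transmembrane mucins, had log2 fold changes of -0.052 (SE 0.26) and -0.17 (SE 0.10), neither past the threshold. That of MUC12 was above 0 in 6 of 16 alternatives, at 0.023 with library totals only (-0.046 if ribosomal RNA genes were also left out), 0.032 with limma-voom, 0.0083 with the replicate block, 0.17 without siALDOA replicate 1, and 0.20 or 0.11 without siControl replicates 1 or 3. That of MUC3A was -0.097 with library totals only, -0.089 without siALDOA replicate 1, -0.29 without siALDOA replicate 3 and -0.098 without siControl replicate 3. MUC4, a transmembrane mucin beside MUC20 on chromosome 3, was at 0.740 ± 0.382 CPM with siALDOA and 0.276 ± 0.0738 CPM with siControl (SD, n = 3 each) and its log2 fold change of 1.41 (SE 0.53, adjusted p = 0.101 in edgeR) did not pass. It passed with the likelihood ratio test (adjusted p = 0.0310) and without siALDOA replicate 2 (1.79, adjusted p = 0.0493), within 0.0310 to 0.292 over the alternatives that tested it. MUC6, the gel-forming mucin of gastric glands beside MUC2, was at -0.73 (SE 0.58) and did not pass, with -0.40 in limma-voom, -1.14 without siControl replicate 2 and 0.13 without siControl replicate 3. MUC16, a large transmembrane mucin, was at -0.39 (SE 0.30) and did not pass, with -0.19 without siALDOA replicate 2, -0.66 without siALDOA replicate 3 and -0.23 without siControl replicate 1.

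**Figure D4:**
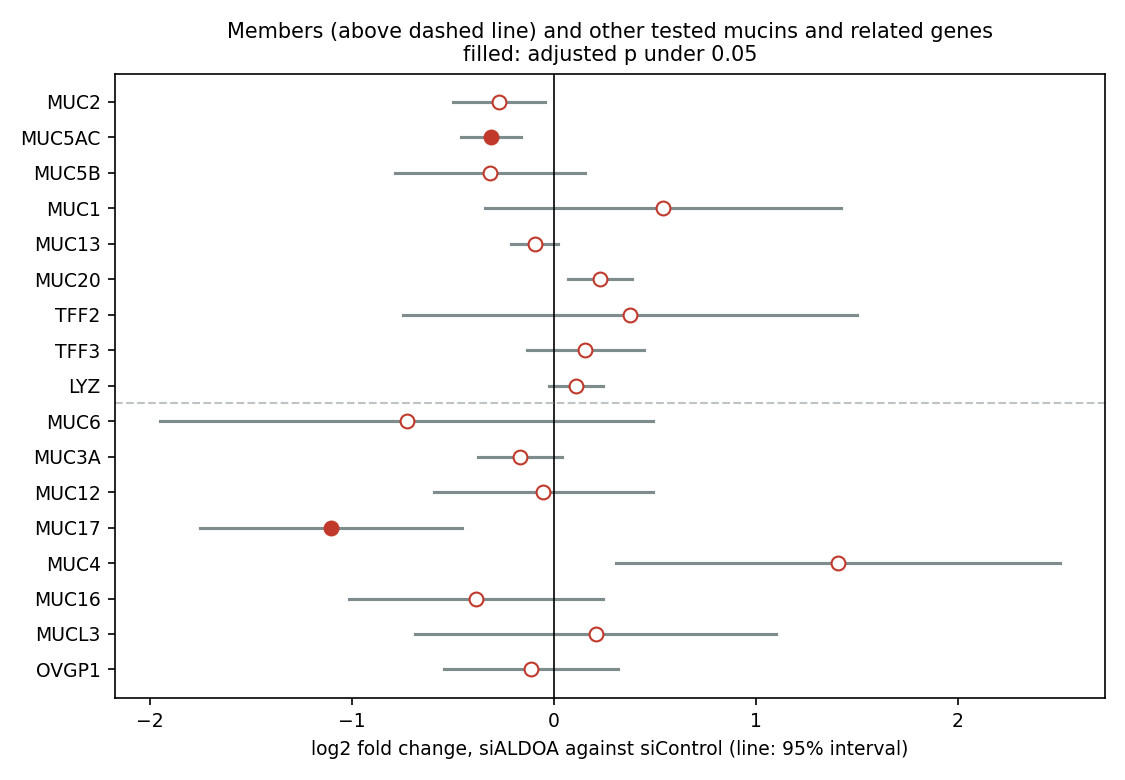
log2 fold change of siALDOA against siControl with its 95% interval for the 9 tested members, above the dashed line, and the 8 tested genes of the list of other mucins. Filled points passed an adjusted p of 0.05 in edgeR, which were MUC5AC at -0.31 and MUC17 at -1.10. The widest intervals belong to genes that lay near or below 1 CPM.

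Of 18 goblet cell products, 11 were tested, with 0 called higher and 1 lower in edgeR, against 4.36% and 5.29% of all tested genes. At an unadjusted p under 0.05 there was 1 product in each direction. limma-voom called 0 of them in either direction, and DESeq2 called 0 higher and 1 lower. The median was 0.044. AGR2, the protein disulfide isomerase needed to fold MUC2 and the most abundant of the list, was at 168 ± 1.97 CPM with siALDOA and 176 ± 17.1 CPM with siControl (SD, n = 3 each), a log2 fold change of -0.070 (SE 0.065). FCGBP, a mucus protein that is secreted with MUC2, had a log2 fold change of 0.18 (SE 0.086, adjusted p = 0.199 in edgeR). SPINK1, a secreted trypsin inhibitor, was the gene called lower, at -0.66 (SE 0.19, adjusted p = 0.0345 in edgeR), although its groups overlapped. Its call was lost with limma-voom (0.0698), with library totals only (0.0583, but 0.0320 if ribosomal RNA genes were also left out), without siALDOA replicates 1 (0.0826) or 3 (0.0974) and without siControl replicates 2 (0.101) or 3 (0.256), with a lowest adjusted p of 0.00145. CLCA1 and ZG16, products of mature colonic goblet cells, were at or near 0, with at most 5 counts in a library.

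Of 19 transcription factors of the goblet and gut epithelial lineage, 17 were tested, with a median of -0.13. edgeR called 1 higher and 4 lower, against 4.36% and 5.29% of all tested genes. ATOH1, which specifies the secretory lineage, and SPDEF, which drives goblet cell maturation, had log2 fold changes of 0.23 (SE 0.15) and 0.015 (SE 0.095) and did not pass. KLF4, a factor of goblet cell differentiation, fell from 20.1 ± 1.76 CPM to 15.6 ± 1.25 CPM (SD, n = 3 each), a log2 fold change of -0.36 (SE 0.10, adjusted p = 0.0279 in edgeR). KLF5, its relative in crypt cells and the most abundant of the list, fell by 0.28 on the log2 scale (SE 0.055, adjusted p = 0.00210 in edgeR). FOXA1 and FOXA2, forkhead factors known to act on MUC2, moved in opposite directions, FOXA1 at -0.24 (SE 0.072, adjusted p = 0.0393 in edgeR) and FOXA2 at 0.50 (SE 0.12, adjusted p = 0.00856). HNF4A, a nuclear receptor of gut epithelium, was at -0.21 (SE 0.060, adjusted p = 0.0272 in edgeR). With library totals only, 0 of these factors were called lower and 1 higher, and the adjusted p was 0.136 for KLF4 and KLF5, 0.299 for FOXA1 and 0.337 for HNF4A. When ribosomal RNA genes were left out before scaling by totals, 4 were called lower and 1 higher, with 0.0289 for KLF4, 7.66e-04 for KLF5, 0.0422 for FOXA1 and 0.0352 for HNF4A. Over all alternatives, the adjusted p ranged from 0.00892 to 0.144 for KLF4, 5.29e-07 to 0.136 for KLF5, 0.00324 to 0.299 for FOXA1, 4.73e-04 to 0.0621 for FOXA2 and 0.00951 to 0.337 for HNF4A.

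KLF5 kept its call whichever of the 6 libraries was left out. KLF4 lost it without siALDOA replicates 1 (0.0855) or 2 (0.0586) and without siControl replicates 2 (0.105) or 3 (0.144). FOXA2 lost it without siALDOA replicate 3 (0.0554) and without siControl replicates 2 (0.0558) or 3 (0.0621). HNF4A kept it only without siALDOA replicates 1 or 3, with adjusted p of 0.0607 to 0.0995 without the others. FOXA1 kept it only without siALDOA replicate 3, with 0.0641 to 0.174 without the others. The FOXA1 log2 fold change shrank to -0.16 without siALDOA replicate 1.

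Mucin chains are covered with O-glycans, which GALNT enzymes start and other transferases extend and cap. Of 20 genes of O-glycan initiation, 12 were tested, with a median of -0.059. edgeR called 0 higher and 0 lower, against 4.36% and 5.29% of all tested genes. At an unadjusted p under 0.05 there were 0 higher and 4 lower genes, against 1728 higher and 1888 lower of all 15307 tested genes. limma-voom called 0 and 0, DESeq2 0 and 2, and the likelihood ratio test 0 and 3. The replicate block called 0 higher and 4 lower, and the fit with no filter on low counts 0 and 2. GALNT3, the most abundant, had a log2 fold change of 0.030 (SE 0.064). Of 25 genes that build and cap the O-glycan cores, 22 were tested, with a median of -0.086. In edgeR 0 were called higher and 6 lower, against 4.36% and 5.29% of all tested genes. At an unadjusted p under 0.05, 3 were higher and 8 lower, against 1728 and 1888 of all 15307 tested genes. limma-voom and DESeq2 both called 0 higher and 6 lower. Leaving out 1 library at a time gave 0 to 1 higher and 2 to 4 lower. With library totals only, 1 was called higher and 2 lower, and with ribosomal RNA genes left out as well 0 higher and 4 lower.

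GCNT3, which adds branches to mucin O-glycans, was at 575, 496 and 500 CPM in the siALDOA replicates and at 866, 765 and 769 CPM in the siControl replicates. Each siALDOA library was far below each siControl library, with replicate 1 the highest in both groups. The log2 fold change was -0.61 (SE 0.068, adjusted p = 3.21e-06 in edgeR), and the call held in all 16 alternatives with values from -0.69 to -0.54. The GCNT3 promoter, the 250 bases before its start at chr15:59611533-59611782 on the plus strand of GRCh38.p14, is shown as that of the called glycan gene with the smallest p. The RefSeq sequence held 1 NF-kappaB like match, in capitals, beginning 39 bases before the start, and the MUC17 window held none of the 6 motifs.
GCNT3: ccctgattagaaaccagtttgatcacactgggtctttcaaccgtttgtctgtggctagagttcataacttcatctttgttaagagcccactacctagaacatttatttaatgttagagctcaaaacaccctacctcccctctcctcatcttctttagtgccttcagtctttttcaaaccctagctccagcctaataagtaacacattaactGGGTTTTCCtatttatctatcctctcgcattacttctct
FUT3, a fucosyltransferase that makes Lewis antigens, was at -0.57 (SE 0.14, adjusted p = 0.0152 in edgeR), and its call was lost without siALDOA replicate 3 (0.0505) and without siControl replicate 2 (0.123), with a lowest value of 8.16e-04 over the alternatives. The sialyltransferase ST3GAL1, the most abundant of the list, fell from 795 ± 7.04 CPM to 690 ± 34.6 CPM (SD, n = 3 each), a log2 fold change of -0.21 (SE 0.059, adjusted p = 0.0298 in edgeR). B4GALNT3, ST3GAL2 and FUT4 had log2 fold changes of -0.24, -0.19 and -0.20, with adjusted p of 0.0197, 0.0488 and 0.0416. With library totals only the log2 fold change was -0.13 for ST3GAL1 (adjusted p = 0.415) and -0.17 for B4GALNT3 (0.263). That of ST3GAL2 was -0.11 (0.452) and that of FUT4 -0.12 (0.425). With ribosomal RNA genes left out as well, ST3GAL1 (0.0121) and B4GALNT3 (0.0252) passed. B4GALNT3 was also lost without siALDOA replicate 3 (0.0643) or siControl replicate 3 (0.149), and ST3GAL1 without siALDOA replicate 2 (0.0917) or siControl replicates 1 (0.0615), 2 (0.0974) or 3 (0.0926). ST3GAL2 and FUT4 were lost whichever of the 6 libraries was left out, with adjusted p of 0.0521 to 0.140 and 0.0575 to 0.163. Both were also lost with ribosomal RNA genes left out and library totals only (0.0606 and 0.0502), and ST3GAL2 with upper quartile scaling (0.0551). C1GALT1, the enzyme that makes the common core of mucin O-glycans, was at 0.16 (SE 0.062, adjusted p = 0.121 in edgeR) and did not pass.

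**Figure D5:**
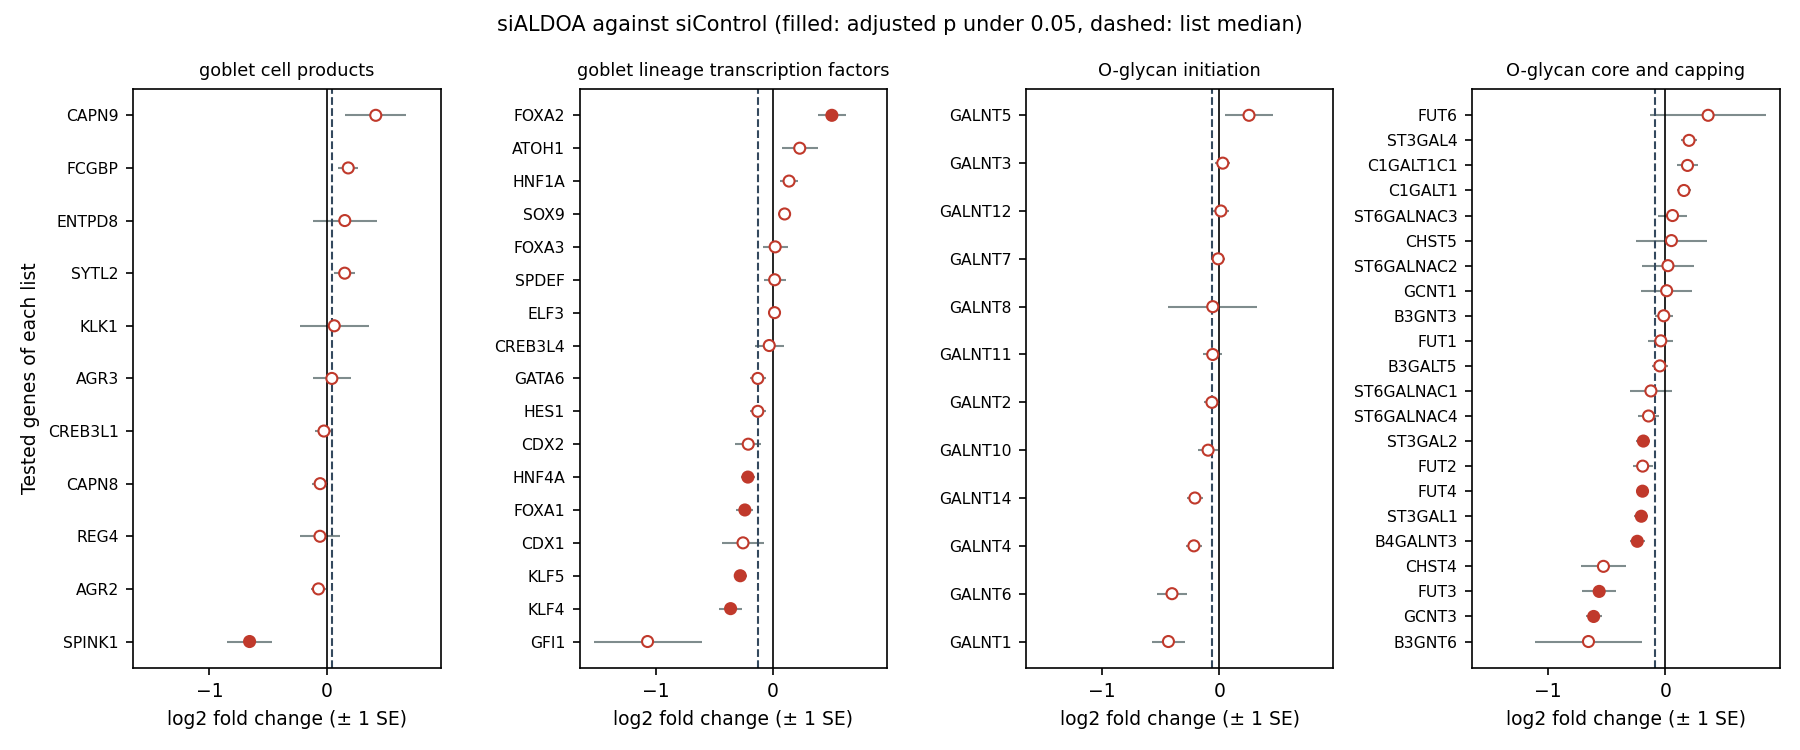
log2 fold change with 1 standard error for the tested genes of 4 lists, sorted within each list, with the list median as a dashed line. Filled points passed an adjusted p of 0.05 in edgeR, 1 goblet cell product, 5 transcription factors, 0 initiating GALNT genes and 6 genes of O-glycan cores and capping.

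Around the MUC2, MUC5AC and MUC5B cluster, 43 other genes lay within 500 kb, of which 33 were tested. Their median log2 fold change was -0.033, with 1 called higher and 1 lower, against 4.36% and 5.29% of all tested genes. The called genes were IRF7, an interferon regulatory factor (0.76, adjusted p = 4.51e-07), and CTSD, the lysosomal protease cathepsin D (-0.51, adjusted p = 8.11e-06). Around the cluster of TFF1, TFF2 and TFF3 on chromosome 21, 16 genes lay within that distance, of which 9 were tested, with a median of -0.024. edgeR called 0 of them higher and 2 lower, against the same shares of all tested genes. Called lower were the sterol transporter ABCG1 (-0.28, adjusted p = 0.0159) and the zinc finger gene ZBTB21 (-0.32, adjusted p = 0.0271). ABCG1 was lost without siALDOA replicates 2 (0.0723) or 3 (0.0592) and without siControl replicate 3 (0.120), and with library totals only (0.170, but 0.0198 if ribosomal RNA genes were also left out). ZBTB21 was lost without siALDOA replicates 2 (0.132) or 3 (0.0663) and without siControl replicates 2 (0.160) or 3 (0.0535), and with library totals only (0.130, or 0.0311 in the same way). Across the 6 libraries, among tested genes whose mean reached 1 CPM, those with the log2 CPM most correlated with that of MUC5AC were UBN1, PPM1F, KLHDC7A, PRSS3 and TTC39C, with Pearson r from 0.987 to 0.994. They were picked for the highest r over 6 libraries that differ by group, and are given as a description. Of them, PRSS3, which encodes a trypsinogen, was called lower (-0.35, adjusted p = 0.00729, 0.0674 without siControl replicate 3, 0.0861 with library totals only and 0.00795 when ribosomal RNA genes were left out as well).

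The cells carried markers listed for colonic epithelium, at unlike levels. Means over the 6 libraries were 317 CPM for KRT20, 288 for VIL1, 13.4 for CDX2, 5.36 for GPA33, 5.25 for CDH17 and 4.94 for CDX1. KRT8, a keratin of simple epithelia and the most abundant of 12 such markers, was at 5093 ± 198 CPM with siALDOA and 5595 ± 190.1 CPM with siControl (SD, n = 3 each). Among 11 tested epithelial markers 1 was called higher, KRT19 (0.38, adjusted p = 5.77e-04), and 1 lower, KRT18 (-0.28, adjusted p = 0.0152). Over all tested genes the shares were 4.36% and 5.29%. LGALS4, a galectin typical of intestinal epithelium, was listed at 0 in all 6 libraries. A gene listed at 0 in these files is therefore not read as a gene that the cells lack. KRT18 was lost with library totals only (0.243, but 2.64e-04 if ribosomal RNA genes were also left out), without siALDOA replicates 2 (0.0750) or 3 (0.0704) and without siControl replicates 2 (0.0702) or 3 (0.0512). Because LYZ is also a myeloid gene, 16 leukocyte markers were counted, with a summed level of 32.8, 35.4 and 33.2 CPM with siALDOA and 28.7, 31.0 and 32.5 CPM with siControl. TYROBP, CD163, AIF1 and S100A8 were listed at 0 in all 6 libraries, and PTPRC had 1 count in 1 library. Other markers were present, with CD68 at 13.9, CYBB at 1.63, LAPTM5 at 0.719 and ITGAM at 0.478 CPM, none of them called. The most abundant was CD14, at 15.2 CPM, and CD14 and CD68 held most of the summed level. CD14 was the 1 marker of 5 tested that was called higher (0.32, adjusted p = 0.0485), against 4.36% of all tested genes. It lost the call with limma-voom (0.0525). Leaving out siALDOA replicate 1 kept it, and leaving out any other library gave adjusted p of 0.0629 to 0.153.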

How the data were processed

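RNA-Seq counts of 6 HT29 libraries, 3 siALDOA and 3 siControl, were used. The authors used tophat2 (hg38, paired-end reads) and gfold, and the deposited files hold raw counts per gene symbol. Annotation, strand use and the counting of reads matching several places were not stated, so homologous mucins and antisense genes may share reads. Counts were tested in R 4.3.3 with edgeR 4.0.16 (filterByExpr, TMM, quasi-likelihood F-test) without a covariate, and the test was checked on simulated data. Standard errors were derived from each log2 fold change and its F statistic. Alternatives were limma-voom (limma 3.58.1), DESeq2 1.42.0, the likelihood ratio test, library totals only, upper quartile scaling, a minimum of 10 counts per gene and library, omission of the low-count filter, a replicate block and omission of each library in turn. Leaving out ribosomal RNA genes, also with library totals only, was added after seeing the data. The members and lists were chosen with earlier results of these data known. Named genes were the members, ALDOA, called genes and the most abundant gene of each list, called genes within 500 kb of either cluster, and 5 genes correlated with the member of smallest p. Other genes of the lists were named for their role after their values were seen. Promoters are RefSeq, build GRCh38.p14. Transcript lengths are from GENCODE release 44. Figures were drawn with matplotlib 3.10.9.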

Additional observations from a re-analysis of the deposited data

How the results depend on the processing

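Over all tested genes, 668 were called higher and 810 lower. With library totals only these were 896 and 279, and the median over all tested genes moved to 0.075 (log2). Leaving out 1 library at a time gave 359 to 644 higher and 471 to 790 lower genes, with the fewest higher without siControl replicates 2 (359 higher, 490 lower) and 3 (363 higher, 471 lower). Among members, the count called higher rose from 0 to 1 (MUC20) with the likelihood ratio test, with library totals only and with the replicate block, and was 0 to 1 when 1 library was left out, with 1 without siControl replicate 1. The count called lower was 0 with library totals only and 2 (MUC5AC and MUC2) with no filter, and was 0 to 2 when 1 library was left out, with 2 without siControl replicate 2 and 0 without siControl replicate 3. The cause was not tested. Without ribosomal RNA genes, library totals gave 735 higher and 760 lower genes, with 0 members higher and 1 lower. The MUC12 log2 fold change of -0.052 became 0.032 with limma-voom, 0.023 with library totals only and 0.0083 with the replicate block, and ran from -0.39 to 0.20 when 1 library was left out. That of MUC6 ran from -1.14 to 0.13, above 0 only without siControl replicate 3. MUC1, MUC5B, MUC13, TFF2, TFF3 and LYZ passed the threshold in no alternative that tested them, which were 15 for MUC1, 14 for TFF2 and 16 for the others.

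With the replicate number as a replicate block, 987 genes were called higher and 1175 lower, and all 1478 genes called without it were among them. MUC5AC was at -0.31 (adjusted p = 2.41e-04) and MUC20 at 0.23 (adjusted p = 0.0320). The correlations of deviations from the group mean were 0.035, 0.027 and 0.026 for equal numbers. Each sample correlated best with its own number, a hint from the data only. All 3 values were low, but correlations over all tested genes include counting noise, so they cannot decide whether samples were paired. The samples were not taken as pairs. With 27.8 to 32.95 counts per CPM, TFF2, MUC1, MUC4 and MUC6 rested on few counts and had standard errors of 0.42 to 0.58, and TFF1 was not tested.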

Other observations

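Of 10 gastric lineage markers, 3 were tested, with 0 called higher and 1 lower in edgeR, against 4.36% and 5.29% of all tested genes. At an unadjusted p under 0.05 there were 0 higher and 2 lower. limma-voom and DESeq2 also called 0 higher and 1 lower. The called gene was ANXA10, an annexin of gastric epithelium, which fell from 26.2 ± 0.796 CPM to 18.5 ± 1.99 CPM (SD, n = 3 each), a log2 fold change of -0.50 (SE 0.093, adjusted p = 0.00131), and it kept its call in all 16 alternatives. GKN1 and GKN2, secreted with MUC5AC and TFF1 by gastric surface cells, were listed at 0 in all 6 libraries, as was LGALS4, a galectin typical of intestinal epithelium. Of 6 tuft cell markers, 3 were tested and 1 was called higher, against 4.36% of all tested genes. It was the cation channel TRPM5 (0.53, adjusted p = 0.0304). Its call was lost without siALDOA replicates 2 (0.0774) or 3 (0.106) and without siControl replicates 2 (0.120) or 3 (0.112). Of 9 enteroendocrine markers 5 were tested, led by PAX4 at 2.35 CPM, and of 7 fibroblast markers 2 were tested, led by COL1A1 at 2.15 CPM. edgeR called 0 genes of either list, and so did limma-voom and DESeq2, with 0 at an unadjusted p under 0.05.

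Among 19 luminal antimicrobial and secretory proteins, 6 were tested, with 1 called higher and 1 lower, against 4.36% and 5.29% of all tested genes. The likelihood ratio test, no filter on low counts and the replicate block each called 1 higher and 2 lower. PIGR, the receptor that carries immunoglobulin A into the mucus, rose from 3.74 ± 0.683 CPM to 5.66 ± 0.527 CPM (SD, n = 3 each), a log2 fold change of 0.59 (SE 0.18, adjusted p = 0.0423). It kept the call without siControl replicate 3 and lost it without any of the other 5 libraries (adjusted p of 0.0516 to 0.169). WFDC2, a secreted protease inhibitor, was at -0.54 (SE 0.12, adjusted p = 0.00636) and kept its call in all 16 alternatives. LCN2, an iron-scavenging protein and the most abundant of this list, was at -0.20 (SE 0.11) and did not pass. The Paneth cell genes DEFA5 and REG3A were listed at 0 in all 6 libraries, while LYZ was at 1330 CPM.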
